A study of Mus musculus with 8 samples.

Results

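Single bone marrow progenitor wells of 4 libraries named plate2 were compared by the position of their barcode. Each library used 96 barcodes of its own, and these repeat in blocks of 16 positions. Wells at positions 2 and 9 were set against wells at positions 4 and 11. The positions were chosen by the measured levels of Mpo, Elane, Prtn3 and Ctsg, high at the first pair, and of Car1, high at the second, so these 5 genes describe the groups and are no finding. Of 186 plate2 wells with at least 1000 transcripts, 26 lay at positions 2 and 9 and 28 at positions 4 and 11, among 417 such wells in the whole series.

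Each genotype, wild type and heterozygous for Mof (Mof -/+ in the labels), had 2 plate2 libraries. Mof is an older name of Kat8, a lysine acetyltransferase that acts on histone H4. All wells held bone marrow progenitors sorted and frozen before CEL-Seq2, in which each captured transcript carries a molecular identifier and is counted once. The design text names 8 sort gates, among them Pre-GMP and GMP (granulocyte-monocyte progenitors), Pre-CFU-E and MEP (erythroid and megakaryocyte progenitors). The gate of a plate2 well is not given in the sources used here, and neither are the animals' strain and age or how the Mof allele was made. Nothing in the labels says that the libraries of a genotype came from separate mice, so a p-value here speaks of library-to-library spread alone, and that spread may be technical.

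Blood formation in the marrow splits early between a granulocyte-monocyte and an erythroid branch. PU.1 and C/EBP factors drive the first branch, in which cells load primary (azurophil) granules with myeloperoxidase and a family of serine proteases. GATA1, its cofactor FOG1 (Zfpm1) and KLF1 drive the second, in which cells switch on carbonic anhydrases, haem enzymes and, later, globins.

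The 4 granule genes that mark positions 2 and 9 and Klf1 are shown by the stretch upstream of their start, as genes of either side, the granule genes higher at positions 2 and 9 and Klf1 at positions 4 and 11. The sequences are the 250 bases before the RefSeq gene start in GRCm38.p6, written 5′ to 3′ on the gene's own strand. Capitals mark AGGAAGT, which PU.1 and other ETS factors can bind, in the granule genes. In Klf1 they mark TTATCA, the reverse complement of a core bound by GATA factors. Both strands were searched.
Mpo: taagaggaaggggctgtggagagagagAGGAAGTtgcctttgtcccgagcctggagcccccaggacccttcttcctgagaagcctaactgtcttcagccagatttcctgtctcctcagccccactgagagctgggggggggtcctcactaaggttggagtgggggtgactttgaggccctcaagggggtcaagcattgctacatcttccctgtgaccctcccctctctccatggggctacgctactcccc
Elane: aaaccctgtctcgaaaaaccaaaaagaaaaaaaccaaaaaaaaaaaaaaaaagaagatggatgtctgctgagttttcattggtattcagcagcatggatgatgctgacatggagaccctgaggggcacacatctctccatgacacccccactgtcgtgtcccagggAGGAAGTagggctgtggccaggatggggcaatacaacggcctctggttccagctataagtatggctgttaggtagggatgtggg
Prtn3: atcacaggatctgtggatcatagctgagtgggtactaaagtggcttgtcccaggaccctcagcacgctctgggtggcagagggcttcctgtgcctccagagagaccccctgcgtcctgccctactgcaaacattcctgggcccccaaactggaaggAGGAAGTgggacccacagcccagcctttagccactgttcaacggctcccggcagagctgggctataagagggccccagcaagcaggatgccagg
Ctsg: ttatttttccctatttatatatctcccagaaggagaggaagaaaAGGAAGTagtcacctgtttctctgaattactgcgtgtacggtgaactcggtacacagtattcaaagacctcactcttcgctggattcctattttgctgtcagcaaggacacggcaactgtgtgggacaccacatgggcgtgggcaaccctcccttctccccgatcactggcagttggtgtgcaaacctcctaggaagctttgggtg
Klf1: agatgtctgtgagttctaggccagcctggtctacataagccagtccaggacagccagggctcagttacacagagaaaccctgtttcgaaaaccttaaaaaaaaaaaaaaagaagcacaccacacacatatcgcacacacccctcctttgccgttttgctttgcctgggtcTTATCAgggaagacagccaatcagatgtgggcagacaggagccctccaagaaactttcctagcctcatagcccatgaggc

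The windows lie at chr11:87793534-87793783 (Mpo, plus strand), chr10:79886062-79886311 (Elane, plus strand), chr10:79879417-79879666 (Prtn3, plus strand), chr14:56102575-56102824 (Ctsg, minus strand) and chr8:84901732-84901981 (Klf1, plus strand). Prtn3 and Elane are neighbours on chromosome 10. AGGAAGT began 223 bases before the start in Mpo, 84 in Elane, 94 in Prtn3 and 206 in Ctsg, in each case on the gene's strand. It was present in 7.69% of all 32851 RefSeq promoter windows of this length. The GATA match in Klf1 began 80 bases before the start, and its core TGATAA was present in 7.94% of windows. The same window of Gata1 held neither these cores nor AGATAA, TTGCNNAA (a C/EBP core) or CCACACCC (a KLF core), which were present in 9.99%, 9.56% and 3.20% of all windows. The C/EBP core was also absent from the windows of the granule genes, and the KLF core from that of Klf1. These matches describe letters in the windows and no binding was measured.

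The kept plate2 wells held between 419920 and 721310 transcripts per library. The wells of positions 2 and 9 held 164520 in wild type library 1, 9860.7 in wild type library 2, 112270 in heterozygous library 1 and 145260 in heterozygous library 2. Wild type library 2 kept 1 well of this pair, at position 2, against 10, 5 and 10 in the other libraries, so its values there are those of 1 cell. The wells of positions 4 and 11 numbered 7 and 4 in the wild type and 11 and 6 in the heterozygous libraries. Kat8 itself was at the limit of detection in both groups. It gave 2 and 0 transcripts in the wild type and 3 and 2 in the heterozygous libraries at positions 2 and 9, and 2, 0, 3 and 3 at positions 4 and 11, which does not allow a check of the genotype labels. Each plate2 library shares its 96 barcodes with 1 library of the other genotype. In 7 of the 54 wells, all of 1037.2 to 1715.4 transcripts, an estimated 23.9% to 85.2% of transcripts could be carry-over from that library, against at most 4.74% in any other well.

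A kept well at positions 2 and 9 held a median of 14551 transcripts (range 1037.2 to 38371) and 3842 genes, and one at positions 4 and 11 held 21765 (1014.9 to 44138) and 5006 genes. Within libraries the log2 ratio of the medians was -0.27 ± 0.33 (SD, n = 4 libraries). The exact two-sided sign-flip permutation test gave p = 0.25, where the smallest p it allows is 0.125. The ratio was -0.54 with a minimum of 2000 transcripts per well and -0.14 without heterozygous library 2.

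Mpo was present in 25 of the 26 wells at positions 2 and 9 (96.2%, exact Clopper-Pearson 95% interval 80.4% to 99.9%, counting error only). That was 10 of 10 wells in wild type library 1, the only well of wild type library 2, 4 of 5 in heterozygous library 1 and 10 of 10 in heterozygous library 2. At positions 4 and 11, 6 of 28 wells held Mpo (21.4%), never above 2 transcripts, and in the stem cell (HSC) libraries 2 of 231 wells did (0.866%), at a median of 2307.3 transcripts. After thinning each well to 1000 transcripts the shares were 69.2% and 7.14%.

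**Figure D1:**
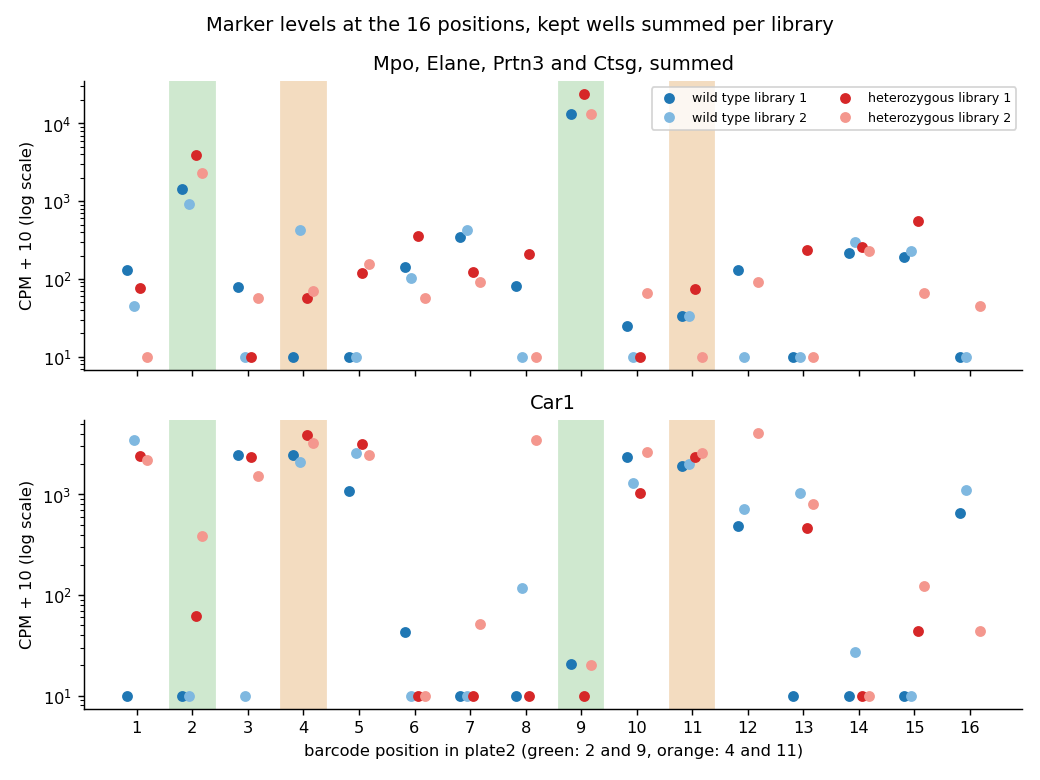
Summed CPM (transcripts scaled to the total of the kept wells, plus 10, log scale) of Mpo, Elane, Prtn3 and Ctsg in the upper panel and of Car1 in the lower panel, at the 16 barcode positions, with 1 point per plate2 library that kept a well there. At positions 2 and 9 the 4 granule genes ran from 913 to 23824 CPM, while Car1 at positions 4 and 11 ran from 1910.0 to 3926 CPM and was as high at some other positions.

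By the 4 granule genes against Car1, 2 of the 54 wells did not go with their pair, 1 of them by a tie. The tie was at position 2, where a well of heterozygous library 1 with 6938 transcripts held no Mpo, Elane or Ctsg and 1 transcript each of Prtn3 and Car1. It instead held 25 transcripts of Ebf1, a factor that sets up the B lineage, 10 of Dntt, which adds bases at immunoglobulin joins, and 2 each of Cd79a and Cd79b, parts of the B cell receptor. Ebf1 was at 0 in all other wells of both pairs. The other exception was a position 2 well of heterozygous library 2 with 17 transcripts of Car1, 7 of Car2, 4 of Klf1 and 3 of Gata1 beside 3 of Mpo. In all 28 wells at positions 4 and 11 Car1 exceeded the sum of the 4 granule genes. Below the 1000-transcript minimum, 7 wells of positions 2 and 9 with 500 to 1000 transcripts gave 71 transcripts of the 4 granule genes and 1 of Car1, and 12 such wells of positions 4 and 11 gave 0 and 13.

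The 2 pairs of positions differed across whole gene programmes. The rule chose the positions from expression in these wells, so the values that follow describe the groups and carry no test. In a fit with library as a block, 198 of 2020 genes were higher at positions 2 and 9 (9.8%) and 113 were lower (5.59%), which is 15.4% in all past an adjusted p of 0.05 in edgeR. The count of 311 was 180 without wild type library 1, 563 without wild type library 2, 193 without heterozygous library 2 and 4 when every well was thinned to 1000 transcripts, where 82 genes could be fitted.

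Primary granule genes were higher at positions 2 and 9, among them Mpo, Prtn3 and Ctsg, which had chosen the positions. Mpo, myeloperoxidase, had 4229.8 CPM in wild type library 1, 406 in wild type library 2, 8813 in heterozygous library 1 and 5221 in heterozygous library 2 at positions 2 and 9, and 6.09, 22.6, 16.2 and 9.33 at positions 4 and 11. The groups did not overlap, and the fitted log2 fold change was 8.90 ± 0.41 (SE, n = 4 libraries). Prtn3 (proteinase 3) differed by 7.46 ± 0.40 and Ctsg (cathepsin G) by 8.0 ± 0.42. Serpinb1a, an inhibitor that protects the cell from these proteases, had 316, 609, 384 and 221 CPM against 6.09 or less, a log2 fold change of 7.0 ± 0.58. Plac8 differed by 4.44 ± 0.28. Srgn, the proteoglycan core on which granule proteins are packed, was present in both groups and differed by 1.66 ± 0.26. These 6 genes are the members that passed the count filter among 11 present in the files. Elane (neutrophil elastase) did not pass it, because the only well of wild type library 2 held none; it had 205, 0, 446 and 163 transcripts at positions 2 and 9 and 1 in all at positions 4 and 11.

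**Figure D2:**
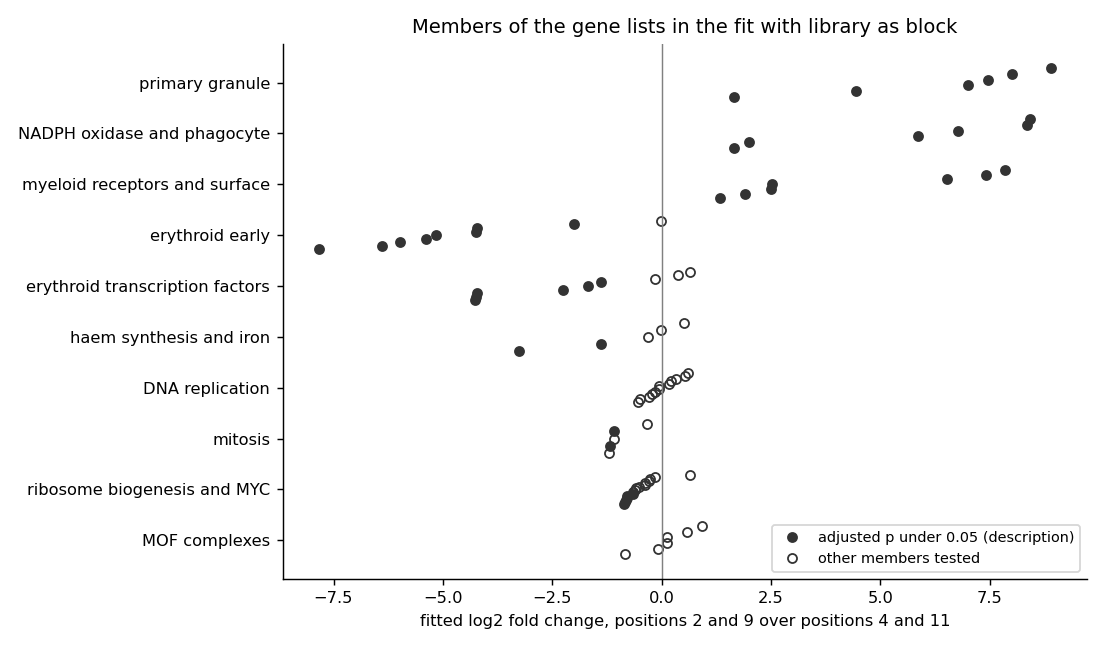
Fitted log2 fold change of each tested list member, positions 2 and 9 over positions 4 and 11, with filled points for an adjusted p under 0.05 in edgeR and open points for the other members. Granule, oxidase and myeloid surface genes lie to the right, early erythroid genes to the left down to -7.83, and DNA replication genes around 0.

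Genes of the phagocyte oxidase and of myeloid signalling followed the same split. Ncf1, the p47phox organiser of the NADPH oxidase, had 341, 101, 384 and 193 CPM at positions 2 and 9 and no transcript in any library at positions 4 and 11. Ncf4, a further cytosolic subunit, was likewise at 0 there. Tyrobp, the adaptor DAP12, had 195, 203, 375 and 476 CPM against 0 in every library. Coro1a, an actin regulator of leukocytes, differed by 5.86 ± 0.52, Laptm5 by 2.0 ± 0.24 and Rac2, the haematopoietic Rac GTPase, by 1.66 ± 0.29. For a gene at 0 in 1 group the fitted value depends on the prior count, so no fold is read from it.

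Receptors and surface genes of the branch were higher too. Cd34, a sialomucin of progenitors, had 323, 406, 89.1 and 338 CPM against 0 in all 4 libraries, and Fcgr3, the Fc receptor CD16 that is part of the GMP gate, had 97.3, 101, 241 and 117 against 0. On the fitted log2 scale Csf3r, the G-CSF receptor, differed by 2.53 ± 0.42 and Csf2ra, the GM-CSF receptor alpha chain, by 2.49 ± 0.43. Irf8, which directs monocyte and dendritic fate, had 860, 1422, 473 and 704 CPM against 12.2, 0, 4.05 and 28. Of the factors that the background names, Cebpa was seen only at positions 2 and 9, with 73, 203, 178 and 89.5 CPM, and Spi1 (PU.1) had 79, 0, 89.1 and 68.9 against 0. Neither passed the count filter.

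Other genes of largest difference included Ccl9, a chemokine of myeloid cells, with 292, 406, 178 and 200 CPM against 0 in all libraries, and Atp8b4, an aminophospholipid transporter, with a log2 fold change of 6.90 ± 0.60. Tifab and Myo1f, a class I myosin of leukocytes, were likewise at 0 in every library at positions 4 and 11.

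On the erythroid side, 8 of 9 tested early erythroid genes were lower at positions 2 and 9, beside 5.59% of all genes. The 8 include Car1, which had chosen positions 4 and 11. Blvrb, Ermap, Aqp1, Klf1 and Gata1 among them were scarce at positions 2 and 9 and passed the count filter through positions 4 and 11. The count describes the groups and is no support. Car2, a carbonic anhydrase, had 1730.0, 1705, 1715 and 1596 CPM at positions 4 and 11, in the same order of libraries, and 24.3, 101, 8.91 and 68.9 at positions 2 and 9, a log2 fold change of -5.40 ± 0.34. Its level varied little across the 4 libraries, less than that of Car1, which ran from 2025.8 to 3331 CPM. Blvrb, biliverdin reductase B, had 250, 135, 235 and 233 CPM at positions 4 and 11 and none in any library at positions 2 and 9. Ermap, an erythroid membrane protein, differed by -6.39 ± 0.49 and Aqp1, the red cell water channel, by -5.15 ± 0.37. Mt1 (metallothionein 1) differed by -1.99 ± 0.32. Tfrc, the transferrin receptor, was the exception at -0.01 ± 0.40.

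Of 9 tested erythroid transcription factors 6 were lower, beside 5.59% of all genes, and this count too describes the groups. Klf1 and Gata1 among them are also in the early erythroid list. Klf1, Gata1 and Zfpm1 were scarce at positions 2 and 9 and passed the count filter through positions 4 and 11. Klf1 had 250, 135, 162 and 187 CPM at positions 4 and 11 against 0, 0, 0 and 27.6, where the 4 transcripts all came from the position 2 well described above. Gata1 differed by -4.22 ± 0.56 and Zfpm1 by -4.26 ± 0.48. Tal1, Ldb1 and Bcl11a were present on both sides and differed by -2.25 ± 0.37, -1.40 ± 0.32 and -1.69 ± 0.29. Lmo2, Zbtb7a and Myc lay at 0.37 ± 0.23, -0.15 ± 0.30 and 0.64 ± 0.32. Gata2, listed with basophil and mast cell genes but also a factor of early progenitors, differed by -2.11 ± 0.47. Among the other genes of largest difference, Atp1b2, a sodium pump subunit, had 268, 271, 398 and 280 CPM at positions 4 and 11 and at most 6.89 at positions 2 and 9. Slc25a21, a mitochondrial carrier, had none there, and Sept8, Nfia and Spire1 differed by -5.77 ± 0.70, -5.21 ± 0.60 and -4.36 ± 0.66.

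Genes of late red cell maturation were scarce at positions 4 and 11. Cpox, an enzyme of haem synthesis, was lower at positions 2 and 9 (-3.26 ± 0.44). Alas2, the erythroid form of the first haem enzyme, had no transcript in any library of either pair, and 13 globin transcripts were counted in 7 of 28 wells at positions 4 and 11 against 15 in 10 of 26 at positions 2 and 9. Alas1, the form used outside the erythroid lineage, had 280, 101, 626 and 248 CPM at positions 2 and 9 against 22.6 or less.

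Growth and division genes differed less. None of 12 DNA replication genes passed, beside 15.4% of all genes in either direction, with log2 fold changes from -0.54 to 0.60. Of 16 ribosome biogenesis genes 4 were lower at positions 2 and 9, beside 5.59% of all genes. Their median was -0.60 over those tested against -0.06 over all genes. Odc1, ornithine decarboxylase, was lowest at -0.87 ± 0.30. Of 5 mitosis genes Mki67 (-1.09 ± 0.28) and Cenpe (-1.18 ± 0.40) were lower, beside the same 5.59% of all genes. None of the 6 tested members of the Mof complexes passed, beside the same 15.4% of all genes, and with 6 genes no result is read from this. Kansl1 was highest at 0.92 ± 0.46.

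**Figure D3:**
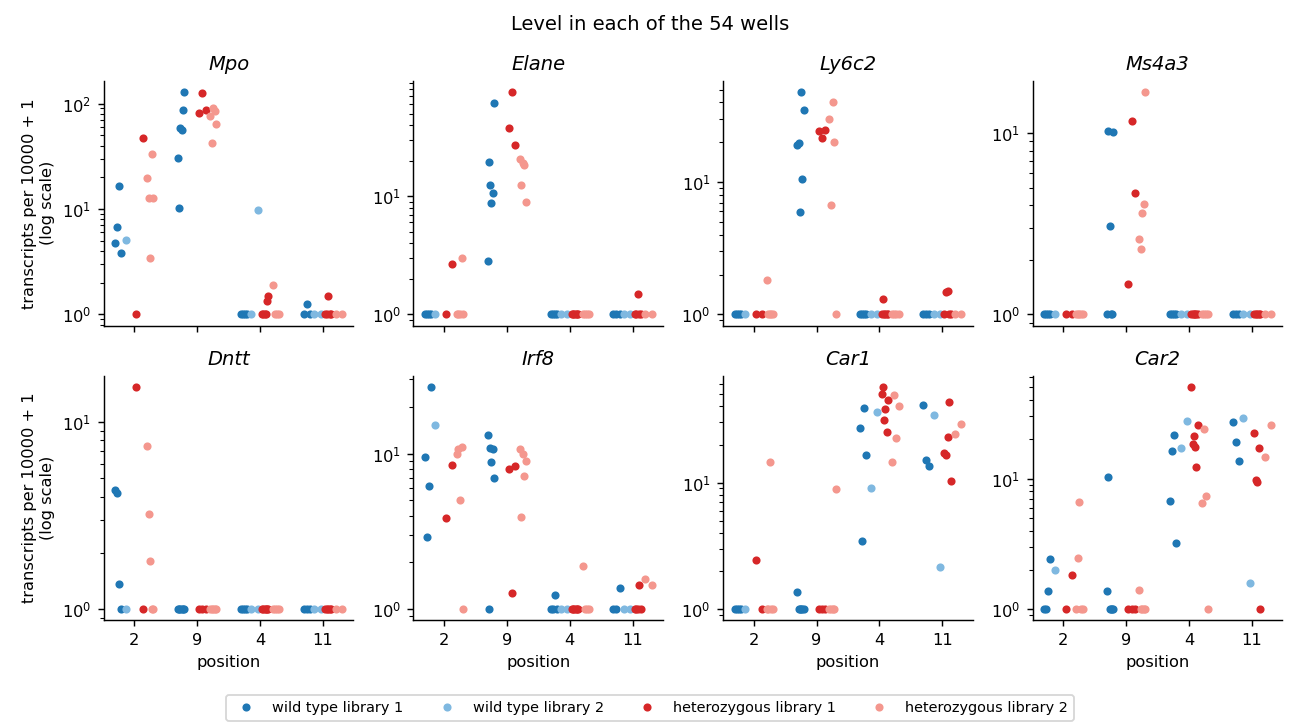
Transcripts per 10000 of the well (plus 1, log scale) for 8 genes in each of the 54 wells, by position and library. At position 9 Elane lies above 0 in all 14 wells, Ly6c2 in 13 and Ms4a3 in 11, and these genes are mostly at 0 at position 2. Dntt is seen only at position 2, and Car1 and Car2 separate positions 4 and 11 from the other pair apart from single wells.

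Positions 2 and 9 were not alike, a comparison that the choice of the pair did not use. The 3 libraries with wells at both positions entered the fit, with 6 wells at position 9 and 4 at position 2 in wild type library 1, 3 and 2 in heterozygous library 1, and 5 and 5 in heterozygous library 2. Of 1261 genes 63 were higher at position 9 (5%) and 65 at position 2 (5.15%), 10.2% in all. The count of 128 was 88 without the 2 wells that did not go with their pair. It was 58 in DESeq2, 0 when thinned to 1000 transcripts, and 3 without wild type library 1, where 2 heterozygous libraries remain. In this fit the spread was shared fully across genes, so a gene that varies more than most between libraries gets too small a p. Wells at position 9 held a median of 24859 transcripts and those at position 2 a median of 12250, and the part of depth was not tested.

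At position 9 the granule genes were highest, as a description of genes that marked the pair. Mpo was present in all 14 wells at position 9, with 1, 155 and 455 transcripts as the lowest, median and highest count, and in 11 of 12 wells at position 2, with 0, 8.5 and 56. Elane was present in 14 of 14 wells at position 9 and 2 of 12 at position 2. Of these wells, 4 at position 9 and 1 at position 2 had an estimated carry-over of 20% or more. In the others Mpo was present in 10 of 10 and 10 of 11 wells, and Elane in 10 of 10 and 2 of 11. In CPM it had 2183, 4759 and 1616 at position 9 in the 3 libraries and 0, 105 and 22.2 at position 2. The fitted log2 fold change was 6.35 ± 0.42 (SE, n = 3 libraries), against 2.14 ± 0.23 for Mpo, 2.58 ± 0.25 for Prtn3 and 2.64 ± 0.27 for Ctsg.

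Of the 7 tested granule genes that had not marked the pair, Ms4a3, Hp, Srgn and Plac8 were called higher at position 9, beside 5% of all genes. Ms4a3 and Hp, with 0 and 1 transcripts at position 2, passed the count filter through position 9. Ms4a3, a membrane protein of granulocyte-monocyte progenitors, was in 11 of 14 wells at position 9, with 342, 571 and 220 CPM, and in 0 of 12 at position 2 (log2 fold change 7.47 ± 1.07, adjusted p = 2.2e-10 in edgeR). For 0 of 12 wells the exact Clopper-Pearson upper bound is 26.5%. Hp, haptoglobin, had 256, 462 and 330 CPM against 0, 0 and 22.2 (4.86 ± 0.78, adjusted p = 3.4e-08). Slpi, a secreted inhibitor of elastase, rose by 3.81 ± 0.74 and, with 2 transcripts at position 2, passed the count filter through position 9. Srgn rose by 1.21 ± 0.24, with an adjusted p of 2.3e-05, and Plac8 by 0.71 ± 0.23, with an adjusted p of 0.0207 that is 0.179 without the 2 wells. Serpinb1a did not pass, with 384, 430.4 and 219.9 CPM at position 9 and 227, 158 and 222 at position 2 (0.39 ± 0.39). Cst7 and Nkg7 did not pass either, at 1.15 ± 0.63 and 1.21 ± 0.61, with adjusted p of 0.28 and 0.23 in edgeR.

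Of 4 tested monocyte genes 2, Ly6c2 and F13a1, were called higher at position 9, beside 5% of all genes. With 1 and 3 transcripts at position 2, both passed the count filter through position 9, so that their number is no support. Ly6c2, the Ly6C antigen of monocytes, had 1738, 2229 and 2268 CPM at position 9 and 0, 0 and 22.2 at position 2. It was in 13 of 14 wells and 1 of 12 (7.54 ± 0.50, adjusted p = 2.8e-46). F13a1, a factor XIII subunit made by monocytes, had 523, 344 and 1113 CPM against 14.2, 0 and 44.3. Fcgr3 had 170.5, 290.0 and 169.9 CPM at position 9 and none at position 2 in the 3 libraries, although the position 2 well of wild type library 2, outside this fit, gave 101 CPM. Igsf6 and Ly6c1 were also at 0 in all 3 libraries at position 2, and like Fcgr3 they passed the count filter through position 9. Irf8 did not pass and its ranges overlapped, with 752, 578 and 755 CPM at position 2 and 941, 452 and 681 at position 9 (-0.25 ± 0.27, adjusted p = 0.70). Cd34 lay at -0.98 ± 0.38 with an adjusted p of 0.081, and Csf1r, the M-CSF receptor, at 0.45 ± 0.62.

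**Figure D4:**
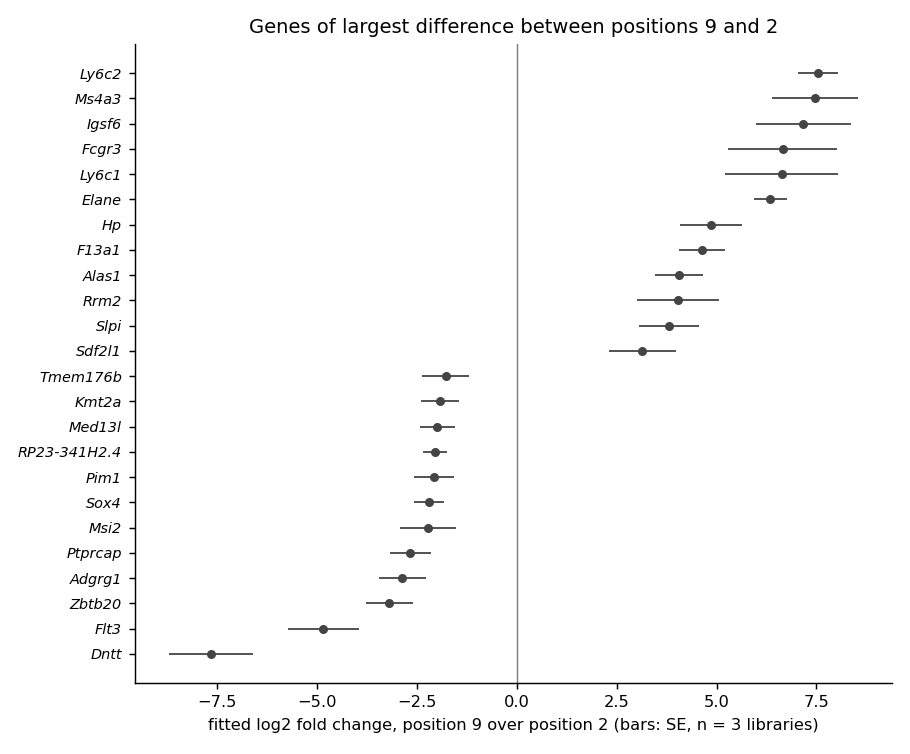
Fitted log2 fold change of position 9 over position 2 for the genes of largest difference on each side, with bars of 1 SE over 3 libraries. Ly6c2, Ms4a3 and Igsf6 lead at position 9 and Dntt (-7.65) and Flt3 (-4.84) at position 2.

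Of 7 lymphoid genes in the files only Flt3 and Dntt entered the fit, and both were higher at position 2. They passed the count filter through position 2, with 2 and 0 transcripts at position 9, so that their number is no support. Flt3, a cytokine receptor of multipotent and lymphoid progenitors, had 283, 210 and 155 CPM at position 2 and 10.7, 0 and 9.99 at position 9 (-4.84 ± 0.89, adjusted p = 2.1e-06). Dntt was in 7 of 12 wells at position 2, with counts of 7, 5 and 1 in wild type library 1, 10 in heterozygous library 1 and 8, 3 and 1 in heterozygous library 2, and in 0 of 14 at position 9 (-7.65 ± 1.05, adjusted p = 3.0e-11). Both Dntt and Flt3 were at 0 in all 28 wells of positions 4 and 11. Over the whole lymphoid list, position 2 gave 100 transcripts in 11 of 12 wells, from 6 of 7 genes, and 304 to 2263 CPM per library, where Il7r was at 0 and 39 transcripts came from the well with Ebf1. Position 9 gave 5 transcripts in 3 of 14 wells. Without the 2 wells that did not go with their pair Flt3 was at -5.02, with an adjusted p of 8.7e-09, and Dntt could no longer be fitted.

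Further genes higher at position 2 were Sox4, a factor of lymphoid and early progenitors, with 468, 526 and 710 CPM against 191.9, 32.2 and 199.8 (-2.20 ± 0.38, adjusted p = 2.2e-07), and Adgrg1, the stem cell receptor GPR56 (-2.86 ± 0.59). Zbtb20 differed by -3.19 ± 0.59. The RNA-binding protein gene Msi2 differed by -2.21 ± 0.71, the kinase gene Pim1 by -2.07 ± 0.50 and Kmt2a, the MLL1 methyltransferase, by -1.92 ± 0.47. Ptprcap, Med13l and Tmem176b completed this group at -2.66 ± 0.52, -1.98 ± 0.44 and -1.78 ± 0.59. Of the 65 genes higher at position 2, 25 were predicted gene models, against 0 of 63 on the other side. Such models made up a median of 12.3% of a well's transcripts at position 2 (8.33% to 37.9%) and 7.24% at position 9 (5.39% to 8.92%), and their part in the result was not tested. With these models left out of library sizes and tests, 61 genes were higher at position 9 and 49 at position 2.

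The division genes Top2a and Mki67, the only mitosis genes tested, were called higher at position 9, beside 5% of all genes, and so was Rrm2. Rrm2, a ribonucleotide reductase subunit, had 170.5, 140 and 220 CPM against 0, 52.5 and 0 (4.04 ± 1.02, adjusted p = 0.0016). It was the 1 DNA replication gene of 11 tested that was called, beside 10.2% of all genes in either direction. With 1 transcript at position 2, it passed the count filter through position 9. Top2a rose by 2.05 ± 0.40, with an adjusted p of 1.1e-05. Mki67 rose by 1.67 ± 0.49, with an adjusted p of 0.0098 that became 0.080 without the 2 wells. Sdf2l1, a co-chaperone of the endoplasmic reticulum, rose by 3.14 ± 0.85, and Alas1 by 4.06 ± 0.59. With 2 and 4 transcripts at position 2, both passed the count filter through position 9. After these values had been seen, other genes of the endoplasmic reticulum were looked up. Calr (calreticulin) had 1954, 2727 and 1828 CPM at position 9 and 468, 579 and 377 at position 2 (1.92 ± 0.25, adjusted p = 1.5e-12). P4hb, Hspa5 and Hsp90b1 were at 1.99 ± 0.36, 1.56 ± 0.27 and 1.26 ± 0.25, and Pdia6 at 0.90 ± 0.36 with an adjusted p of 0.097.

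Granule content also varied among wells of 1 position. The position 9 well of heterozygous library 1 with the most Elane held 274 transcripts of it, 455 of Mpo and 39 of Ms4a3, together with 123 of S100a8, a calprotectin subunit of maturing neutrophils, 1 of Irf8 and none of Cd34. The 2 other position 9 wells of that library held 78 and 92 of Elane, 1 each of S100a8, and 15 and 26 of Irf8. In the mature neutrophil list, position 9 gave 194 transcripts in 11 of 14 wells, 167 of them in that well, with Ltf, Ngp, Retnlg and Mmp9 at 0. Positions 4 and 11 gave 43 in 16 of 28 wells. Most of these were of 1 list member, Cxcr2, with 21 at position 4 and 14 at position 11, and Cxcr2 gave 16 of the 194 at position 9.

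No gene separated position 4 from position 11 past the threshold. Of 1035 genes 0 passed in edgeR (0%), where 24 had an unadjusted p under 0.05, and DESeq2 called 0, with 31 under 0.05. Car1 had 2483, 2111, 3926 and 3248 CPM at position 4 and 1910.0, 2021, 2375 and 2600 at position 11, in the order wild type 1 and 2 and heterozygous 1 and 2. It was higher at position 4 in 4 of 4 libraries, though the ranges overlapped and it did not pass (-0.20 ± 0.34 for position 11 over position 4, adjusted p = 0.99 in edgeR). The value of wild type library 2 at position 4 rests on 5 transcripts in 2 wells of 2369.3 transcripts in all, whose estimated carry-over was 41.8% and 59.97%. Car2 had 1654, 2111, 1889 and 1339 CPM against 1802, 1682, 1434 and 2009. The 3 genes of smallest p on each side were Bod1l, Samsn1 and Caprin1, higher at position 11, and Fam132a, mt-Rnr1 and Setd8, higher at position 4, each with an adjusted p of 0.99.

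Heterozygous and wild type libraries were compared within each pair of positions, to ask what the loss of 1 Mof copy changes in each branch. The 8 sums of both pairs entered a single fit without library as a term. The sums of a library were thus treated as independent, and each test used the spread of both pairs. That spread was also mostly shared across genes, so a gene that varies more than most gets too small a p. At positions 2 and 9 no gene of 3096 passed in edgeR (0%), where 105 had an unadjusted p under 0.05, and DESeq2 called 0, with 28 under 0.05. The smallest p on the higher side belonged to Gstm1, a glutathione transferase, with 122 and 0 CPM in the wild type and 554 and 338 in the heterozygous libraries (2.03 ± 0.55, adjusted p = 0.98). Prtn3 followed, with 1560 and 304 CPM against 4884 and 2278 (1.76 ± 0.51), and Rnaseh2c (2.40 ± 0.78). On the lower side were Aff3, with 152 and 507 CPM against 35.6 and 41.3 (-2.23 ± 0.63), Slc7a1 (-2.54 ± 0.82) and Gm26917 (-1.79 ± 0.66), none of which passed. The primary granule genes lay at a median of 1.25 and the whole table at 0.16. The well of wild type library 2 was a position 2 well, so genotype and the mix of the 2 positions cannot be told apart here. Without wild type library 1 the wild type side is that well alone, and 91 genes then passed, all higher in heterozygotes, with the median of all genes at 0.84. In simulated sums of this layout 46% of genes changed by 4-fold were recovered and 3% of those changed by 2-fold. These sums were drawn without single wells, and genes of like level had the same spread.

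At positions 4 and 11, 1 gene of 3096 was higher in the heterozygous libraries (0.0323%) and 33 were lower (1.07%), 1.1% in all. Of the 33, 30 were predicted gene models with log2 fold changes from -3.61 to -2.22, and the others were RP23-341H2.4, 9930111J21Rik1 and A430073D23Rik. Gm10800, the most abundant of the models, had 41095 and 198140 CPM in the wild type and 31562 and 14267 in the heterozygous libraries. A single position 11 well of wild type library 2 gave 8021 of that library's 8787 transcripts of it. Without this well and 1 position 4 well, the 2 in which predicted models were over 50% of transcripts, no gene was lower, and 3 were higher, namely Vim and the 2 next on the list, Klhl32 (3.77, adjusted p = 0.0052) and Gm43541 (2.39, adjusted p = 0.014). Before, Klhl32 was at 2.41 ± 0.74 with an adjusted p of 0.14. No gene passed without either heterozygous library or when only the 4 sums of this pair were fitted, 75 passed without wild type library 1, 11 without wild type library 2 and 13 in DESeq2. The early erythroid genes lay between -1.0 and 0.52, and none of the 12 tested was called.

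Vim, which encodes the intermediate filament vimentin, was the gene called higher. It had 0 transcripts in all 11 wild type wells at positions 4 and 11 and 56 in the 17 heterozygous wells, 46 in library 1 and 10 in library 2. With a floor of 3 counts over the wild type group this is at least 11-fold higher (adjusted p = 0.000288 in edgeR, 0.0363 in DESeq2). The adjusted p was 0.159 without wild type library 1, 0.663 and 0.169 without heterozygous libraries 1 and 2, and 0.431 when only the 4 sums of this pair were fitted. One well of heterozygous library 1 held 38 of the 56, and the other 18 lay in 7 of 16 wells, which is at least 3.76-fold higher. At positions 2 and 9 Vim had 499 and 203 CPM in the wild type and 366 and 448 in the heterozygous libraries, so that the genotypes overlapped. The difference of the genotype effects between the pairs was -7.23 ± 1.5 on the log2 scale (adjusted p = 0.0044) and was the only call among 3096 genes (0.0323%). This fit too shared the spread fully across genes. The call was lost in DESeq2 (adjusted p = 1), without the count filter (0.105), without wild type library 1 (0.611) and without either heterozygous library (1 in both cases). Among the next genes by p were Nbn, a DNA repair gene, at -3.27 ± 1.18 on that side, and Gm17555, Gm10717 and Gm21833 at 2.05 ± 0.63, 2.09 ± 0.68 and 1.92 ± 0.64 on the other, none of which passed.

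**Figure D5:**
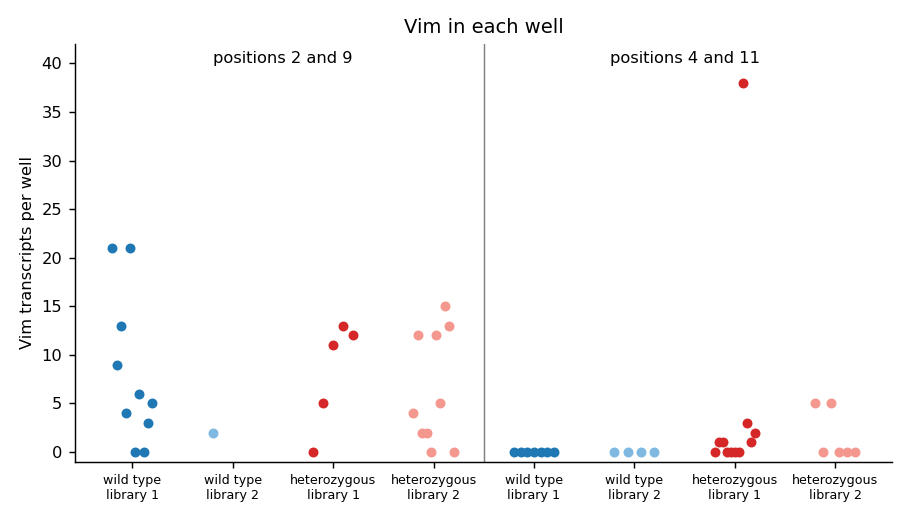
Vim transcripts in each well by library, with positions 2 and 9 on the left and positions 4 and 11 on the right. All 11 wild type wells at positions 4 and 11 lie at 0, and 1 heterozygous well there holds 38 transcripts.

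The same barcodes served in the HSC libraries, which hold 1 sort gate and were not used to choose the positions. There, 28 wells lay at positions 2 and 9 and 34 at positions 4 and 11, with medians of 2194 and 2346 transcripts. Of 258 genes 0 passed (0%) in edgeR, where 19 had an unadjusted p under 0.05, and DESeq2 called 0, with 15 under 0.05. Elane and Ctsg had 0 transcripts at both pairs of barcodes, and Mpo had 1, at positions 4 and 11 of heterozygous HSC library 2. Prtn3 was in 11 of 28 and 12 of 34 wells, and Car1 in 0 of 28 and 3 of 34, 1 of which held 49 transcripts. After the values had been seen, other genes of both branches were looked up in single wells. In wild type HSC library 1, 1 well at positions 2 and 9 held 61 transcripts of S100a8, 58 of S100a9, 43 of Lcn2 and 46 of Ngp, genes of maturing neutrophils, all at 0 at positions 4 and 11 of that library. A well of the same library at positions 4 and 11 held 12 of Car1, 22 of Car2, 9 of Klf1, 11 of Aqp1, 4 of Ermap and 5 of Ank1. The well of heterozygous HSC library 1 with 49 of Car1 held 44 of Car2, 3 of Klf1, 15 of Aqp1, 11 of Ermap and 3 of Ank1. At positions 2 and 9 of these 2 libraries Klf1, Ermap and Ank1 were at 0 and Aqp1 had 3 transcripts. In the heterozygous one Gata1 had 2 transcripts there, and Car2 had 19, in 9 of 9 wells. These differences, which rest on single wells, were not repeated in wild type and heterozygous HSC libraries 2. There Car1, Aqp1, Ermap and Ank1 were at 0 at positions 4 and 11. In wild type HSC library 2, Klf1 had 1 transcript and Gata1 had 2 at positions 4 and 11, and both were at 0 at positions 2 and 9. In heterozygous HSC library 2, S100a8 was in 3 of 8 wells at positions 4 and 11 and in 1 of 9 at positions 2 and 9. Of these branch genes Car2 entered the fit and did not pass (-0.97 ± 0.41, adjusted p = 0.54). The genes nearest to passing were Hspe1 (-1.51 ± 0.30, adjusted p = 0.052), Eef1g (-1.01 ± 0.22, 0.052) and Def8 (1.20 ± 0.27, 0.054). Actb, Pkm and mt-Nd1 lay further from the threshold, with adjusted p from 0.36 to 0.48. Leaving out heterozygous HSC library 2 gave 11 calls.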

How the data were processed

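Each plate2 library was a table of genes by 192 barcodes, and the tables of all libraries together named 19879 genes. The deposited values were expected counts of transcripts per gene and well, which the authors made from molecular identifiers; they equal whole numbers of identifiers out of 4096 corrected for collisions, to within 3.6e-12. Alignment used BWA 0.6.2-r126 and mm10, per the submitters' processing notes. Every table had 0 entries that name no gene. Only a library's own 96 barcodes were used (the consecutive ones that held most of its transcripts), spike-ins were left out of the transcript totals, and wells needed at least 1000 transcripts. The numbers in the titles and in the file names of the 2 wild type plate2 samples are crossed. Each file was assigned as GEO records it, so wild type libraries 1 and 2 could be exchanged throughout, while both are wild type either way. The members and gene lists were chosen with earlier results of these data known.

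Wells were summed per library and position or pair, rounded to whole numbers, and fitted with edgeR 4.0.16 in R 4.3.3 (TMM, filterByExpr, quasi-likelihood test, Benjamini-Hochberg adjustment, threshold 0.05), with library as a block where both groups occur in each library. CPM are scaled to the transcripts of the same wells. CPM of different genes are transcripts counted at the 3′ end and are not divided by length. Tables and intervals used Python 3.11.15 with numpy 2.4.6, pandas 2.3.3 and scipy 1.17.1. The scripts were tested on simulated counts.

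Named genes were list members and, per comparison, up to 12 called genes of largest change on each side with one sign in every library and at least 50 CPM, without predicted models; where fewer than 3 passed, the 3 of smallest p. The single wells described, Calr, P4hb, Hspa5, Hsp90b1, Pdia6, Gm10800 and the 3 genes named beside the predicted models were chosen after their values were seen. Alternatives were RLE size factors, DESeq2 1.42.0, no count filter, a minimum of 2000 transcripts, wells thinned to 1000 transcripts, no block, fewer sums and each library left out. Added after seeing the data were a screen of carry-over under 20% and predicted models left out. Also added was the removal of wells that did not go with their pair or of 50% or more predicted models. Some results are not reported here.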

Additional observations from a re-analysis of the deposited data

Results flagged for a closer look

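The genotype effect on Vim differed between the pairs of positions in a test of the difference itself, with heterozygous over wild type at positions 2 and 9 minus the same at positions 4 and 11 at -7.23 on the log2 scale (adjusted p = 0.0044 in edgeR). Vim was at 0 transcripts in 11 of 11 wild type wells at positions 4 and 11. It was above 0 in 8 of 17 heterozygous wells there, with 46 transcripts in library 1 and 10 in library 2, and 1 well of library 1 held 38. The call was lost in DESeq2 (adjusted p = 1) and without the count filter (0.105). The fit shared the spread fully across genes, so a gene that varies more than most between libraries gets too small a p. The value moved with which libraries entered the fit, and the adjusted p ran from 0.000296 without wild type library 2 to 1 without either heterozygous library. No cause was tested.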

How the results depend on the processing

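The count of genes that differ between positions 2 and 9 and positions 4 and 11 was 672 with no count filter, 4 in thinned wells and 180 to 563 with a library left out. Between positions 9 and 2 it was 58 in DESeq2, 0 in thinned wells and 3 to 132 with a library left out. For genotype at positions 2 and 9 it was 1 with no filter, 1 with only the 4 sums of the pair and 0 to 91 with a library left out. For genotype at positions 4 and 11 it was 13 in DESeq2, 11 in thinned wells, 0 with only the 4 sums, 5 without predicted models, 3 without the wells rich in them and 0 to 75 with a library left out. For the difference of the genotype effects it was 0 in DESeq2, 0 with no filter, 0 in thinned wells and 0 to 33 with a library left out. Between positions 4 and 11 it was 1 without predicted models. In the HSC libraries it was 2 with RLE size factors, 4 with no filter, 2 under the carry-over screen, 3 without predicted models and 0 to 11 with a library left out. The share of wells with Mpo was 69.2% in thinned wells and 93.8% to 100% with a library left out. Gm26917 turned to 6.0 for genotype at positions 2 and 9 without wild type library 1 (range -3.46 to 6.0 with a library left out). For the difference of the effects Gm10717 turned to -0.061 without wild type library 2 (range -0.061 to 5.64), and Gm17555 and Gm21833 turned to -0.32 and -0.41 without the wells rich in predicted models. Thinned wells left 30 to 114 genes to fit. The cause of the other changes was not tested.

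Without the replicate block the counts were 299, 133, 1, 0 and 0 for the pairs, positions 9 and 2, the difference of the effects, positions 4 and 11 and the HSC libraries. No paired analysis was possible for genotype because the numbers of wild type and heterozygous libraries name separate libraries that share no stated source. In simulated sums for the difference of the effects, with these libraries and depths, 5% of genes changed by 4-fold were recovered. The sums were drawn from a common profile, without single wells, and genes of like level had the same spread.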
